A study of Homo sapiens with 12 samples.

Results

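The messenger RNAs of the cytosolic ribosomal proteins were examined in 2 cell lines, SCC15 and SCC25, after treatment with squamocin. Members were the protein-coding genes whose symbol names a large-subunit (RPL, RPLP) or small-subunit (RPS, RPSA) protein, with or without the suffix L or L1 that marks a paralog. The rule used symbols and no measured value, and it found 84 genes in both deposited tables, of 29657 genes listed for SCC15 and 31055 for SCC25. Of these, 77 are canonical genes (31 of the 40S subunit, 43 of the 60S subunit outside its stalk and 3 of the stalk) and 7 are paralogs (RPL22L1, RPL26L1, RPL36AL, RPL39L, RPL3L, RPL7L1 and RPS27L). FAU and RACK1 encode ribosomal proteins under names outside the rule and were described separately.

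SCC15 and SCC25 are established lines of head and neck squamous cell carcinoma (HNSCC), labelled as oral squamous cells of wild-type genotype. Cells of each line received squamocin at 10 µg/mL, a compound of the annonaceous acetogenins that the labels shorten to ACGs, or the solvent DMSO, and RNA was taken after 24 h. Each of the 4 groups holds 3 libraries, 12 in all. The labels do not say whether the 3 came from separate cultures, so the p-values measure the spread between these libraries, which may be technical.

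A ribosome carries 1 copy of nearly every ribosomal protein, so cells hold these mRNAs at high and roughly matched levels. Most of them start with a cytosine followed by an unbroken run of pyrimidines, the 5′ terminal oligopyrimidine (TOP) motif, through which mTORC1 and the RNA-binding protein LARP1 control their translation and stability. Paralogs such as RPL39L and RPL3L are known for expression in particular tissues, and the free 5S RNP, which holds RPL5 and RPL11, binds MDM2 when ribosome assembly is disturbed.

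The values, called normalized counts below, are read counts over a size factor that the authors set for each library within its cell line. The reads recovered from them numbered 16665563 to 22748845 per library. Squamocin replicate 3 of SCC15 stood apart. A chi-square statistic of its read counts against replicates 1 and 2 came to 71.6 and 63.5 per degree of freedom, whereas the other pairs within a group gave 1.72 to 11.0, so results for SCC15 squamocin are also given without it. Of the squamous markers, KRT17, LAMB3 and EGFR were high in both lines, but KRT5, TP63 and DSG3 averaged 9.50, 17.5 and 1.44 normalized counts in SCC15 with DMSO, against 5627, 4512 and 649.6 in SCC25. The share of reads from the mitochondrial genome was lower with squamocin in both lines, at 0.888% ± 0.0836 against 1.72% ± 0.0242 (SD, n = 3) in SCC15 and 3.07% ± 0.547 against 4.43% ± 0.0925 in SCC25. Markers moved with squamocin as well. Of the squamous markers, 3 of 8 tested were higher and 1 lower in SCC15, and 5 of 10 higher and 4 lower in SCC25, with summed levels of 134652 to 141033 normalized counts with DMSO and 272712 to 420138 with squamocin in SCC15, and 83111 to 84351 against 93239 to 100620.4 in SCC25. Of 8 markers of fibroblasts, endothelium and blood cells, 0 of 5 tested were higher and 3 lower (COL3A1, DCN and PECAM1) in SCC15, and 1 of 4 was higher (COL1A1) and 2 lower (PECAM1 and CDH5) in SCC25. Their summed levels were 882 to 963 normalized counts with DMSO and 552 to 565 with squamocin in SCC15, and 791 to 882 against 911 to 1089 in SCC25, where DCN was at 0 with squamocin. The part of the mitochondrial share and of these markers in the results that follow was not tested.

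Sequences around the transcription start are shown because the TOP motif lies at the first bases of the mRNA. RefSeq start entries (GRCh38.p14) within 50 bases of the start of the MANE transcript, the reference transcript agreed for a gene, were matched for 60 canonical genes and 4 paralogs. Each window holds 15 bases before the start and 15 from the start on, 5′ to 3′, and its longest run of C and T is in capitals. A cytosine at the first base followed by pyrimidines, at least 5 in all, was present in 46 of the 60 canonical genes (76.7%), in 1 of the 4 paralogs (RPL22L1) and in 4.07% of all 35116 RefSeq entries, read on the strand of the gene. The longest run had a median of 11 bases in the canonical windows and 4 in all entries. The first 5 windows belong to RPS19, RPL28 and RPS28, whose canonical mRNAs had the largest rises in SCC25 among genes that share few exonic bases with another gene, and to RPL3 and RPS14, which fell there. The last 5 belong to paralogs or their canonical partners.
RPS19: ggaaaccccgtcgTTCCCTTTCCCCTggct
RPL28: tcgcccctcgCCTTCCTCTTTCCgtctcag
RPS28: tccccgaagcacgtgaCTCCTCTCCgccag
RPL3: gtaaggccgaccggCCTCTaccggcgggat
RPS14: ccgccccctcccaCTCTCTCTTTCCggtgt
RPL22: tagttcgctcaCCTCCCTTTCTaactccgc
RPL22L1: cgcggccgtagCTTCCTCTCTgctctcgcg
RPS27: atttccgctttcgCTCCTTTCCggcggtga
RPS27L: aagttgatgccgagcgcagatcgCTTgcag
RPL7L1: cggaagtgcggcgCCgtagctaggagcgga

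These windows lie at chr19:41860240-41860269 on the plus strand (RPS19), chr19:55385917-55385946 on the plus strand (RPL28), chr19:8321481-8321510 on the plus strand (RPS28), chr22:39319609-39319638 on the minus strand (RPL3) and chr5:150449725-150449754 on the minus strand (RPS14). Those of the pairs lie at chr1:6199581-6199610 on the minus strand (RPL22), chr3:170870181-170870210 on the minus strand (RPL22L1), chr1:153990747-153990776 on the plus strand (RPS27), chr15:63157463-63157492 on the minus strand (RPS27L) and chr6:42879601-42879630 on the plus strand (RPL7L1). Each spans the end of the promoter and the first bases of the first exon. RPS19, RPL28, RPS14, RPL22, RPS27 and RPL22L1 carry long runs across the start, and the runs of RPS27L and RPL7L1 have 3 and 2 bases. The matched paralog not shown, RPL36AL, has a run of 15 bases across its start, of which 3 lie from the first base on. The genes that rose and those that fell in SCC25 include long runs. Across the canonical genes, those with the motif (n = 46) had a median log2 fold change of 1.55 in SCC15 and 0.54 in SCC25. Those without it (n = 14) had 1.45 and 0.48. The motif was called from the annotated first base, and 51 of the 60 canonical windows hold a run of at least 8 pyrimidines. Genes without the motif include RPS28, RPL4 and RPL19, with runs of 9, 10 and 11 bases. The groups may thus differ in where the start is annotated, and the part of the motif in the response was not tested.

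Canonical ribosomal protein genes took a larger share of the library with squamocin in both cell lines. In SCC15 the 77 genes held 3.29%, 3.29% and 3.25% of the reads with DMSO and 5.83%, 5.83% and 8.56% with squamocin. In SCC25 they held 7.40%, 7.26% and 7.35% with DMSO and 8.94%, 9.00% and 8.80% with squamocin. Every squamocin library lay above every DMSO library of its line, and SCC15 replicate 3 lay above the other SCC15 libraries. The 95% Wilson intervals of these shares are at most 0.0274 percentage points wide and cover counting error only. Fewer cells and less RNA per cell cannot be told apart in such bulk shares, and neither can a rise of these mRNAs and a fall of the others.

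**Figure D1:**
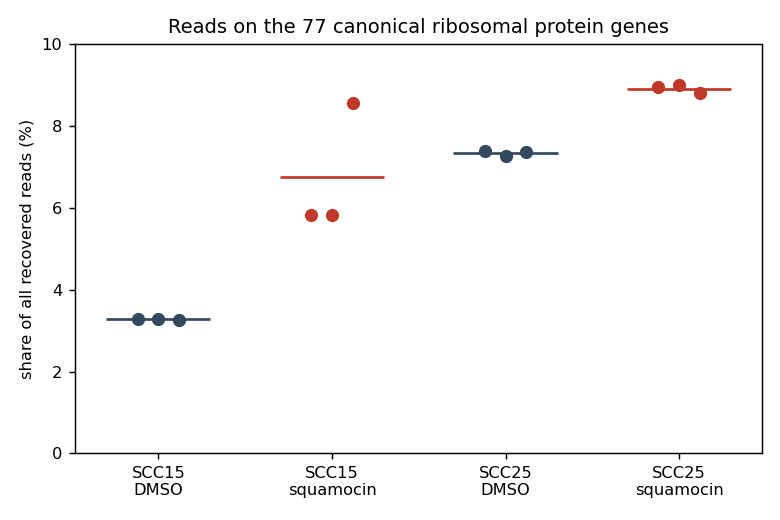
Share of all recovered reads (y axis, percent) on the 77 canonical ribosomal protein genes in each library (points) of the 4 groups (x axis), with the group mean as a line. Both squamocin groups lie above their DMSO groups, and the SCC15 squamocin points split into 2 near 5.83% and 1 at 8.56%.

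Gene by gene, 77 of 77 canonical genes rose in SCC15, where 30.9% of the 15902 genes tested rose and 30% fell (limma on the log2 scale after adding 1, Benjamini-Hochberg adjusted p under 0.05). Their log2 fold changes had a median of 1.51 and ran from 0.86 to 2.10, against a median of 0.01 over all genes, and in 77 of 77 the squamocin libraries lay above all DMSO libraries, as in 35.7% of all genes. In SCC25, 66 of 77 rose, 5 fell and 6 were not called, where 38.3% of the 16539 genes tested rose and 38.5% fell. The median there was 0.52 and the range from -0.85 to 1.81, against a median of -0.01 over all genes. In 66 genes the squamocin libraries lay above all DMSO libraries and in 5 below them, where 39.4% and 39.6% of all genes did. Both subunits moved, with medians of 1.53 (40S, n = 31) and 1.51 (60S outside the stalk, n = 43) in SCC15, and 0.63 and 0.47 in SCC25. Of the 77 genes, 66 rose in both lines, where 22.1% of the 14454 genes tested in both did, and 5 rose in SCC15 and fell in SCC25, where 10.1% had opposite calls.

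Without SCC15 squamocin replicate 3, 77 of 77 genes still rose in SCC15, with a median of 1.25, where 38.4% of all genes rose and 37.2% fell. The shift per library, as the median log2 change from the mean of the DMSO libraries over the 72 canonical genes that share at most 20% of their exonic bases with another gene, was 1.24, 1.25 and 2.06 in the SCC15 squamocin libraries and 0.52, 0.51 and 0.52 in those of SCC25. Scaling all libraries to equal totals lowered the median of all genes to -0.48 in SCC15 and -0.22 in SCC25. On that scale 76 of 77 canonical genes rose and 0 fell in SCC15 (median 1.02), where 14.8% of all genes rose and 50.5% fell. In SCC25, 55 rose and 12 fell (median 0.31), where 30.4% of all genes rose and 47.4% fell. Relative to the median of all genes, the canonical median was 1.50 on either scale in SCC15 and 0.53 on either scale in SCC25. Rescaling shifts all genes of a library alike, so these relative values could hardly change and are no check of the scaling.

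**Figure D2:**
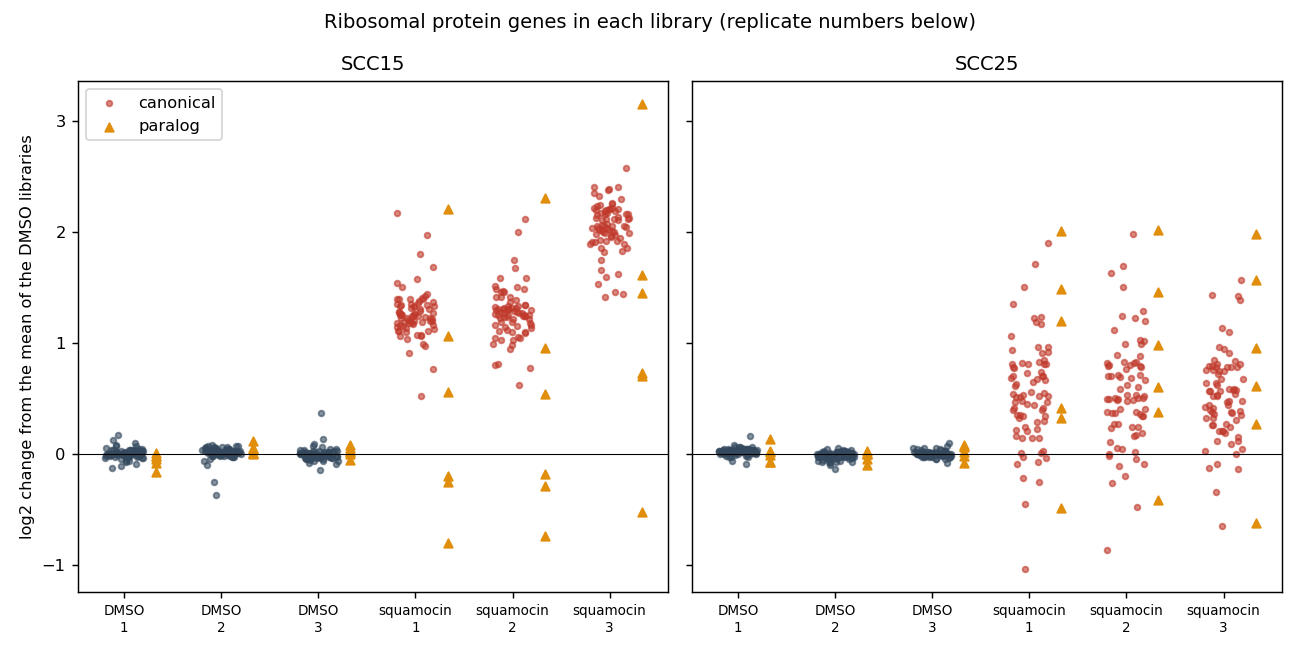
Log2 change of each member from the mean of the DMSO libraries of its line (y axis) in each library (x axis), for the 77 canonical genes (round points) and 6 paralogs (triangles, RPL3L left out for its low counts). The canonical genes form a narrow band in SCC15, shifted by about 1.24, 1.25 and 2.06 in the 3 squamocin libraries, and a wide band in SCC25.

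Among the 5 highest canonical genes in SCC15 were RPL17, RPS28, RPL12 and RPS10. RPL17, which lines the polypeptide exit tunnel, had 250.0, 251 and 288 normalized counts with DMSO and 1182, 1052 and 1146 with squamocin, a log2 fold change of 2.10 ± 0.10 (SE, adjusted p = 1.21e-05). All its squamocin libraries lay far above all DMSO libraries and replicate 3 lay with the other replicates. RPL12, at the base of the stalk, had 6488, 6457 and 6449 normalized counts with DMSO and 20743, 20660 and 30519 with squamocin, a log2 fold change of 1.87 ± 0.16 (SE, adjusted p = 1.03e-04). RPS28 and RPS10 changed by 1.92 and 1.82. RPL17 and RPS10 share over 20% of their exonic bases with another annotated gene on the same strand, and their values are uncertain for that reason.

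The 5 lowest in SCC15 were RPS26, RPL15, RPL26, RPL6 and RPL22, and they rose as well. RPS26, a 40S protein that contacts the mRNA near the exit channel, had 2588, 2601 and 2498 normalized counts with DMSO and 3671, 3929 and 6960 with squamocin, a log2 fold change of 0.86 ± 0.23 (SE, adjusted p = 0.0131). Without replicate 3 its value was 0.57 (adjusted p = 6.99e-10). RPL15, a 60S protein, had 11373, 11565 and 11238 normalized counts with DMSO and 19362, 19408 and 30393 with squamocin, a log2 fold change of 0.98 ± 0.18 (SE, adjusted p = 0.00278). Squamocin libraries did not overlap DMSO libraries in either gene, and replicate 3 was the highest library in both. RPL26, RPL6 and RPL22 changed by 1.16, 1.17 and 1.19. With equal totals, RPS26 was the canonical gene no longer called in SCC15 (log2 fold change 0.36, adjusted p = 0.0962).

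In SCC25 the 5 highest canonical genes were RPS19, RPS28, RPL28, RPL17 and RPS10. RPS19, the 40S protein most often mutated in Diamond-Blackfan anaemia, had 21561, 20967 and 21210 normalized counts with DMSO and 79124, 83638 and 63097 with squamocin, a log2 fold change of 1.81 ± 0.08 (SE, adjusted p = 5.19e-10). RPS28, a 40S protein near the mRNA exit channel, had 2658, 2393 and 2526 normalized counts with DMSO and 8279, 8154 and 6767 with squamocin, a log2 fold change of 1.61 ± 0.07 (SE, adjusted p = 4.82e-10). RPL28, a 60S protein, had 16511, 15470 and 16556 normalized counts with DMSO and 45838, 45725 and 42298 with squamocin, a log2 fold change of 1.46 ± 0.04 (SE, adjusted p = 1.96e-11). In all 3 genes the squamocin libraries lay far above the DMSO libraries, with replicate 3 the lowest of the squamocin libraries. RPL17 and RPS10 changed by 1.34 and 1.32. RPS28, RPL17 and RPS10 were among the 5 highest in both lines.

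Canonical genes with opposite calls rose in SCC15 and fell in SCC25. RPL3, which reaches towards the peptidyl transferase centre, had 11400, 11207 and 11406 normalized counts with DMSO and 29732, 31200 and 44215 with squamocin in SCC15, and 50698, 49648 and 51126 normalized counts with DMSO and 36878, 36110 and 39728 with squamocin in SCC25. Its log2 fold change was 1.60 ± 0.16 (SE, adjusted p = 1.96e-04) in SCC15 and -0.43 ± 0.04 (SE, adjusted p = 1.05e-06) in SCC25. The 3 squamocin libraries of SCC15 lay above, and those of SCC25 below, all DMSO libraries of their line. RPS14, of the 40S platform, had 21689, 20788 and 21567 normalized counts with DMSO and 17920, 17751 and 19417 with squamocin in SCC25, a log2 fold change of -0.22 ± 0.04 (SE, adjusted p = 4.41e-04), against 1.45 in SCC15. RPL36A had 384, 396 and 389 normalized counts with DMSO and 189, 213 and 248 with squamocin in SCC25, a log2 fold change of -0.85 ± 0.10 (SE, adjusted p = 6.19e-06), against 1.40 in SCC15. It shares 43.8% of its exonic bases with the read-through gene RPL36A-HNRNPH2. RPL23A, at the exit of the peptide tunnel, and RPL5, of the 5S RNP, fell by 0.17 and 0.11 on the log2 scale in SCC25 and rose by 1.29 and 1.20 in SCC15. Groups did not overlap in any of the 5 genes, but the fall of RPL5 was not called without DMSO replicate 1 (-0.09, adjusted p = 0.0785) or DMSO replicate 3 (-0.11, adjusted p = 0.0538) of SCC25. The 6 canonical genes not called in SCC25 had log2 fold changes of -0.05 to 0.06, and in each of them the groups overlapped.

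**Figure D3:**
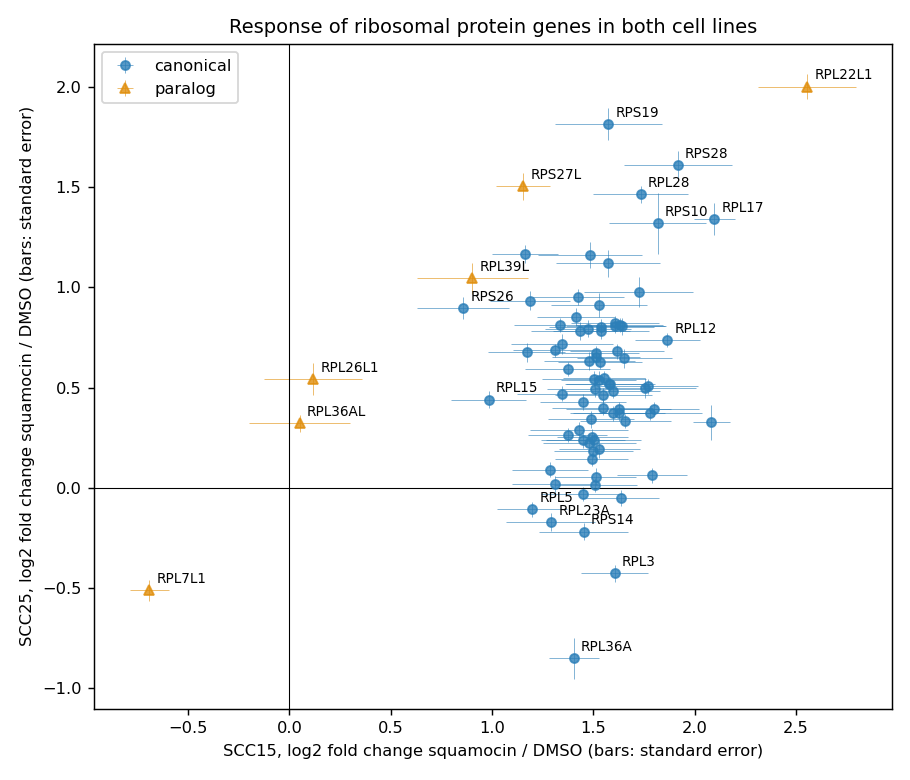
Log2 fold change of squamocin over DMSO in SCC15 (x axis) and SCC25 (y axis) for the 77 canonical genes (round points) and 6 paralogs (triangles), with standard errors as bars. All canonical genes lie to the right of 0 in SCC15, with 5 called below 0 in SCC25, RPL22L1 is the highest member in both lines and RPL7L1 the one member called lower in both.

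RPL11, RPS6, RPS27A, RPSA, RPL10A and the 3 stalk genes were called higher in both lines. RPL11, the partner of RPL5 in the 5S RNP, changed by 1.60 ± 0.21 (SE, adjusted p = 6.37e-04) in SCC15 and 0.37 ± 0.04 (SE, adjusted p = 1.38e-06) in SCC25. RPS6, the substrate of the S6 kinases, had 6142, 6558 and 6029 normalized counts with DMSO and 14899, 15356 and 25765 with squamocin in SCC15, a log2 fold change of 1.53, and 22132, 23110 and 22393 normalized counts with DMSO and 34749, 34567 and 35128 with squamocin in SCC25, a log2 fold change of 0.63. All squamocin libraries lay above all DMSO libraries in both lines. The stalk genes RPLP0, RPLP1 and RPLP2, whose products recruit the translational GTPases, rose by 1.45, 1.54 and 1.50 in SCC15, and in SCC25 by 0.43, 0.78 and 0.54. RPS27A, made as a fusion with ubiquitin, rose by 1.49 and 1.16, and RPSA, also known as a laminin receptor, by 1.53 and 0.91. RPL10A rose by 1.50 and 0.18, and RPL10, a late-joining 60S protein, by 1.79 in SCC15, while its value in SCC25 was 0.06 and not called. With equal totals, the SCC25 values of RPL10, RPL10A and RPL7 turned to -0.15, -0.02 and -0.19, of which those of RPL10 and RPL7 were called. With a correction for exonic length, RPL10A was not called in SCC25 (0.04, adjusted p = 0.354), whereas RPL10 was (0.10, adjusted p = 0.0361).

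The canonical genes moved almost as a block in SCC15 and spread widely in SCC25. Within 1 squamocin library, the SD of the log2 change among the 72 canonical genes was 0.17, 0.19 and 0.21 in SCC15, against 0.43, 0.44 and 0.35 in SCC25 and 0.02 to 0.04 in the DMSO libraries. Each library was next centred on the median level of its canonical genes, a choice made after the data had been seen. A gene is then compared with the rest of the family whatever the scaling. The reference is thus the change of the family's median level. It was smaller than the median change of the genes in SCC25 and larger in SCC15. This favours counts above it in SCC25 and below it in SCC15. On that scale 34 of 77 canonical genes lay above and 23 below the reference in SCC25, where 21.0% of all genes tested lay above and 58.8% below. They divided into 17 above and 7 below among the 31 genes of the 40S subunit and 16 and 16 among the 43 of the 60S subunit outside the stalk. RPS19 stood 1.34 ± 0.07 (SE), RPS28 1.13 ± 0.06 and RPL28 0.99 ± 0.05 above the reference, and RPL36A -1.33 ± 0.11, RPL3 -0.90 ± 0.07 and RPS14 -0.69 ± 0.06 from it in the other direction. In SCC15, 0 genes lay above and 4 below, where 1.67% and 84.0% of all genes did, and 0 lay above at an unadjusted p under 0.05 (limma). The 4 were RPS26 (-0.70 ± 0.15), RPL15 (-0.58 ± 0.12), RPL6 (-0.39 ± 0.12) and RPL5 (-0.36 ± 0.14). Without replicate 3, 10 genes lay above and 17 below, where 4.21% and 86.9% of all genes did. The log2 fold changes of the 77 genes in the 2 lines correlated with Pearson's r of 0.187 and Spearman's rho of 0.161. Over all 14454 genes tested in both, the coefficients were 0.608 and 0.563. They are a description across genes that share libraries and scaling. The 77 genes spanned only 0.86 to 2.10 in SCC15. A narrow range can lower such coefficients, so those of the 77 genes and of all genes are not directly comparable.

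**Figure D4:**
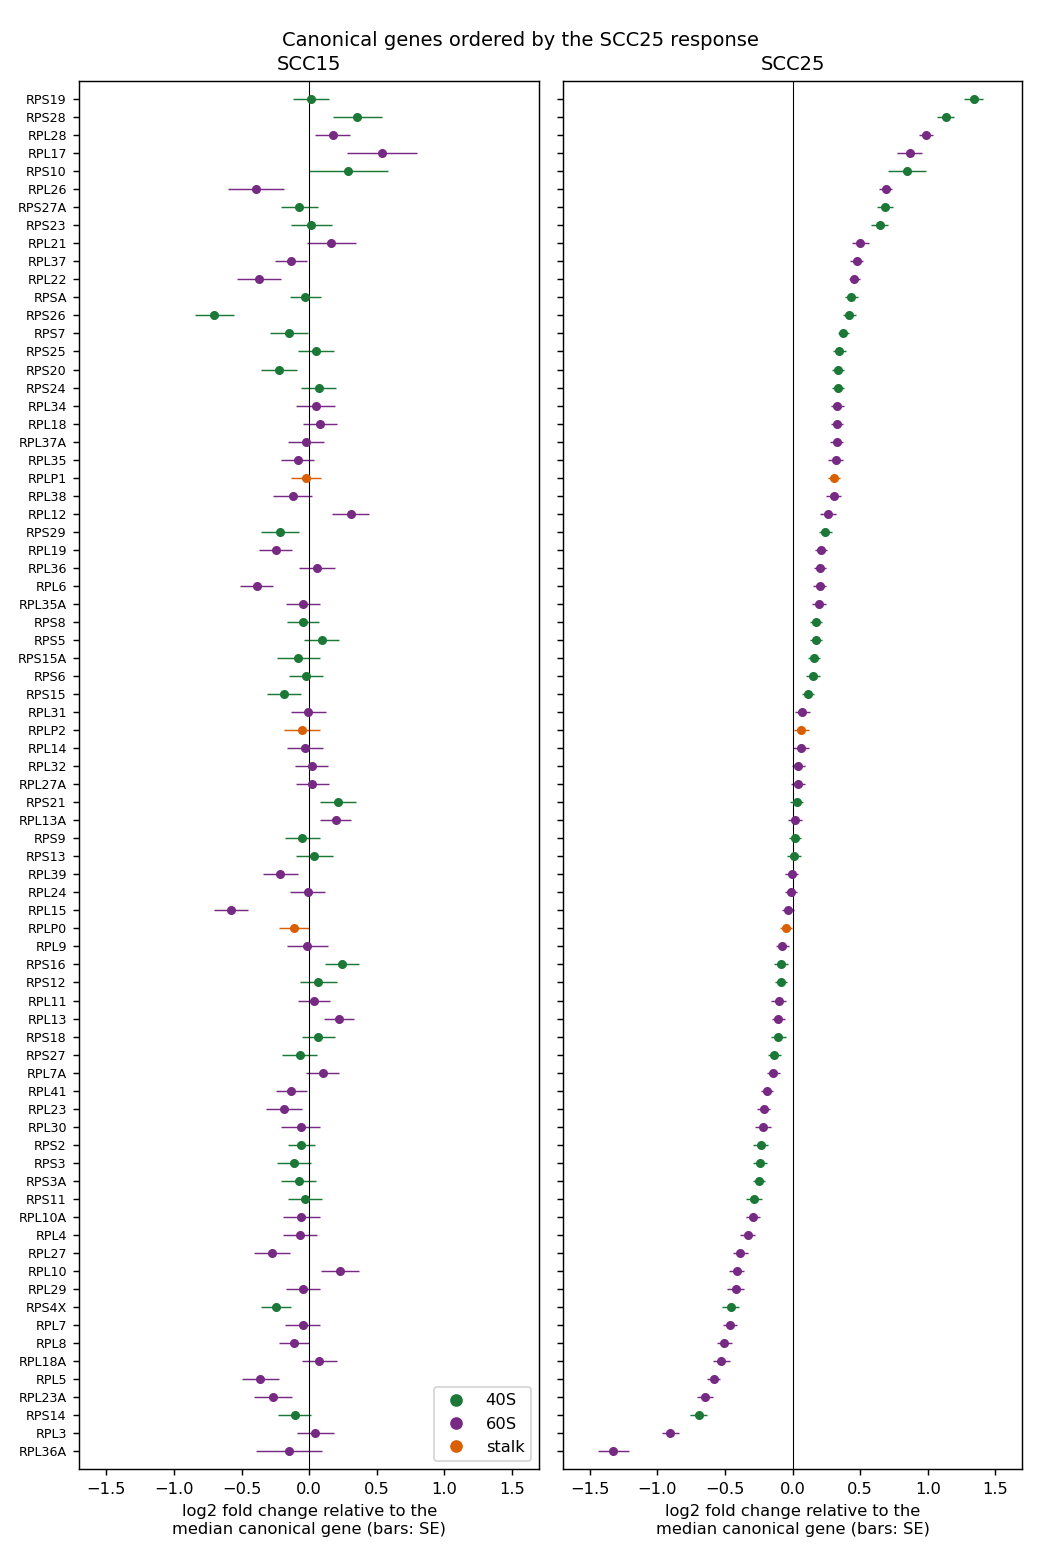
Log2 fold change relative to the median canonical gene of the same library (x axes), with standard errors as bars, for 76 of the 77 canonical genes in SCC15 and SCC25, ordered by SCC25 and coloured by subunit. Values in SCC25 run from -1.33 for RPL36A to 1.34 for RPS19, whereas those of SCC15 stay between -0.70 and 0.54.

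As a test of the difference itself, 61 of the 83 members tested in both lines had a higher response in SCC15 than in SCC25, where 26.1% of the 14454 genes had a higher and 26.0% a lower response in SCC15 (limma contrast). All 61 are canonical, of 77. The largest differences were in RPL36A, 2.26 ± 0.16 (SE, adjusted p = 3.60e-07), and RPL3, 2.03 ± 0.18 (SE, adjusted p = 1.71e-06). RPL10 and RPS14 differed by 1.73 ± 0.19 and 1.67 ± 0.24. The differences of RPS19 (-0.24 ± 0.31), RPS26 (-0.04 ± 0.25) and RPL26 (-0.00 ± 0.18) did not pass the test. A response lower in SCC15 was called for 0 of 83 members by limma (RPS27L at an unadjusted p under 0.05), for 0 by DESeq2 and for 1, a paralog, by edgeR. Without SCC15 squamocin replicate 3, 68 members responded more and 7 less in SCC15, the 7 being RPS19, RPS26 and the paralogs RPL26L1, RPL36AL, RPL39L, RPL7L1 and RPS27L, where 32.5% of all genes responded more and 33.4% less. With each library centred on the median canonical level, 12 of the 83 stood higher and 30 lower in SCC15. Of all genes, 2.54% and 63.2% did.

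The paralogs did not move as a block. In SCC15, 3 of 6 tested rose, 1 fell and 2 were not called, where 30.9% of all genes rose and 30% fell. In SCC25, 5 of 7 rose, 1 fell and 1 was not called, where 38.3% rose and 38.5% fell. Their summed reads came to 11.4 ± 0.275 per 1000 canonical reads with DMSO and 5.04 ± 0.230 with squamocin in SCC15 (SD, n = 3), and to 5.68 ± 0.0443 and 5.26 ± 0.0484 in SCC25. The values in single libraries were 11.1, 11.5 and 11.6 against 5.23, 5.09 and 4.78 in SCC15, with no overlap. To compare each paralog with its canonical partner apart from the scaling, the log2 ratio of their normalized counts was taken within each library. It was tested by an exact permutation test, two-sided, whose smallest p is 0.1 within 1 line (3 libraries against 3) and 0.005 over both lines (400 permutations), with adjustment over 7 pairs. Over both lines the test takes the mean of the differences of the lines, so shifts in opposite directions cancel in it. A high p over both lines therefore does not describe the shift within a line.

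RPL22L1 had the largest rise of all members in both lines. It had 145, 176 and 168 normalized counts with DMSO and 756, 808 and 1453 with squamocin in SCC15, a log2 fold change of 2.55 ± 0.24 (SE, adjusted p = 1.45e-04). In SCC25 it had 597, 526 and 515 normalized counts with DMSO and 2192, 2204 and 2160 with squamocin, a log2 fold change of 2.00 ± 0.06 (SE, adjusted p = 2.41e-11). Squamocin libraries lay far above DMSO libraries in both lines, closely grouped in SCC25 and with replicate 3 the highest in SCC15. RPL22, its canonical partner and an RNA-binding 60S protein, had 1558, 1709 and 1712 normalized counts with DMSO and 3555, 2900 and 5230 with squamocin in SCC15 and 4637, 4608 and 4403 normalized counts with DMSO and 8714, 9207 and 8162 with squamocin in SCC25, log2 fold changes of 1.19 and 0.93. The log2 ratio of RPL22L1 to RPL22 was -3.42, -3.27 and -3.34 with DMSO and -2.23, -1.84 and -1.85 with squamocin in SCC15, and -2.95, -3.13 and -3.09 with DMSO and -1.99, -2.06 and -1.92 with squamocin in SCC25. It was higher with squamocin in 6 of 6 libraries, by 1.37 and 1.07 (exact permutation p = 0.1 in each line, the smallest possible, and 0.005 over both, adjusted p = 0.0117). RPL22L1 is also the one matched paralog whose window, shown with the start sites, carries the TOP motif.

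RPL7L1, whose counterpart in yeast acts in the assembly of the 60S subunit, was the one member that fell in both lines. It had 2118, 2139 and 2177 normalized counts with DMSO and 1230, 1284 and 1484 with squamocin in SCC15, a log2 fold change of -0.69 ± 0.09 (SE, adjusted p = 7.08e-04), and 3791, 3815 and 3861 normalized counts with DMSO and 2716, 2868 and 2479 with squamocin in SCC25, a log2 fold change of -0.51 ± 0.05 (SE, adjusted p = 1.51e-06). All squamocin libraries lay below all DMSO libraries. RPL7 changed by 1.51 in SCC15 and 0.02 in SCC25, so that the log2 ratio of RPL7L1 to RPL7 dropped by 2.20 in SCC15 and 0.53 in SCC25 (exact permutation p = 0.005 over both lines, adjusted p = 0.0117).

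RPS27L, a paralog known as a p53 target, rose in both lines. It had 878, 896 and 902 normalized counts with DMSO and 1858, 1722 and 2440 with squamocin in SCC15, a log2 fold change of 1.15 ± 0.13 (SE, adjusted p = 3.40e-04), and 380.4, 349.9 and 397 normalized counts with DMSO and 1052, 1034 and 1117 with squamocin in SCC25, a log2 fold change of 1.50 ± 0.07 (SE, adjusted p = 6.70e-10). Squamocin libraries lay above DMSO libraries throughout. Against RPS27, which changed by 1.49 and 0.34 (in SCC25 0.10 with a correction for exonic length, adjusted p = 0.0501), its log2 ratio moved by -0.34 in SCC15 and 1.16 in SCC25, in opposite directions with no overlap of the groups in either line (exact permutation p = 0.1 over both lines, adjusted p = 0.147). RPL39L, known for expression in testis and some tumours, rose by 0.90 ± 0.28 (SE, adjusted p = 0.0233) in SCC15 and 1.04 ± 0.08 (SE, adjusted p = 8.27e-08) in SCC25. Without SCC15 squamocin replicate 3 its value in SCC15 was 0.55 (adjusted p = 4.64e-06). Its call there did not pass with equal totals (0.41, adjusted p = 0.141), with a correction for exonic length (0.50, adjusted p = 0.0751) or without any 1 of the DMSO libraries (0.86 to 0.94, adjusted p = 0.0560 to 0.0745). Its log2 ratio to RPL39 moved by -0.44 in SCC15 and 0.58 in SCC25, with no overlap of the groups in either line. The exact permutation p was 0.1 in each line, the smallest possible, and 0.73 over both lines, where opposite shifts cancel (adjusted p = 0.81). The coding sequence of RPL39L is identical to that of RPL39 at 94.8% of aligned positions, with a shared run of 67 bases, so reads may have been assigned to either gene.

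RPL36AL and RPL26L1 were not called in SCC15 and rose in SCC25, where the call of RPL36AL was lost and its sign turned with the correction for exonic length (-0.03, adjusted p = 0.532). RPL36AL had 1799, 1912 and 1856 normalized counts with DMSO and 1556, 1516 and 3012 with squamocin in SCC15 and 2156, 2115 and 2094 normalized counts with DMSO and 2654, 2748 and 2552 with squamocin in SCC25, log2 fold changes of 0.05 ± 0.25 (SE, adjusted p = 0.870) and 0.32 ± 0.04 (SE, adjusted p = 2.53e-05). RPL26L1 had 405, 417 and 387 normalized counts with DMSO and 351, 356 and 668 with squamocin in SCC15 and 349, 371 and 386 normalized counts with DMSO and 491, 561 and 563 with squamocin in SCC25, log2 fold changes of 0.12 ± 0.24 (SE, adjusted p = 0.690) and 0.54 ± 0.08 (SE, adjusted p = 3.88e-05). In SCC15 replicates 1 and 2 with squamocin lay below and replicate 3 above all DMSO libraries in both genes. Without replicate 3 both were called lower in SCC15, RPL36AL at -0.27 (adjusted p = 4.83e-05) and RPL26L1 at -0.19 (adjusted p = 0.0382). The log2 ratio of RPL26L1 to RPL26 dropped by 1.05 in SCC15 and 0.62 in SCC25 (exact permutation p = 0.005 over both lines, adjusted p = 0.0117). That of RPL36AL to RPL36A moved by -1.35 in SCC15 and 1.17 in SCC25, with no overlap of the groups in either line. Its exact permutation p was 0.1 in each line, the smallest possible, and 0.81 over both lines, where opposite shifts cancel (adjusted p = 0.81). The coding sequences of these pairs are 84.1% and 89.9% identical, and RPL26 and RPL36A share exonic bases with other genes, so both ratios are uncertain. RPL3L, known from striated muscle, had 5.64, 18.9 and 13.3 normalized counts with DMSO and 10.2, 13.5 and 6.66 with squamocin in SCC25, with overlapping groups and no call, and was below the minimum mean of 10 in SCC15. Its log2 ratio to RPL3 moved by -1.93 in SCC15 and 0.23 in SCC25 (exact permutation p = 0.105 over both lines, adjusted p = 0.147), on counts of at most 18.9.

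**Figure D5:**
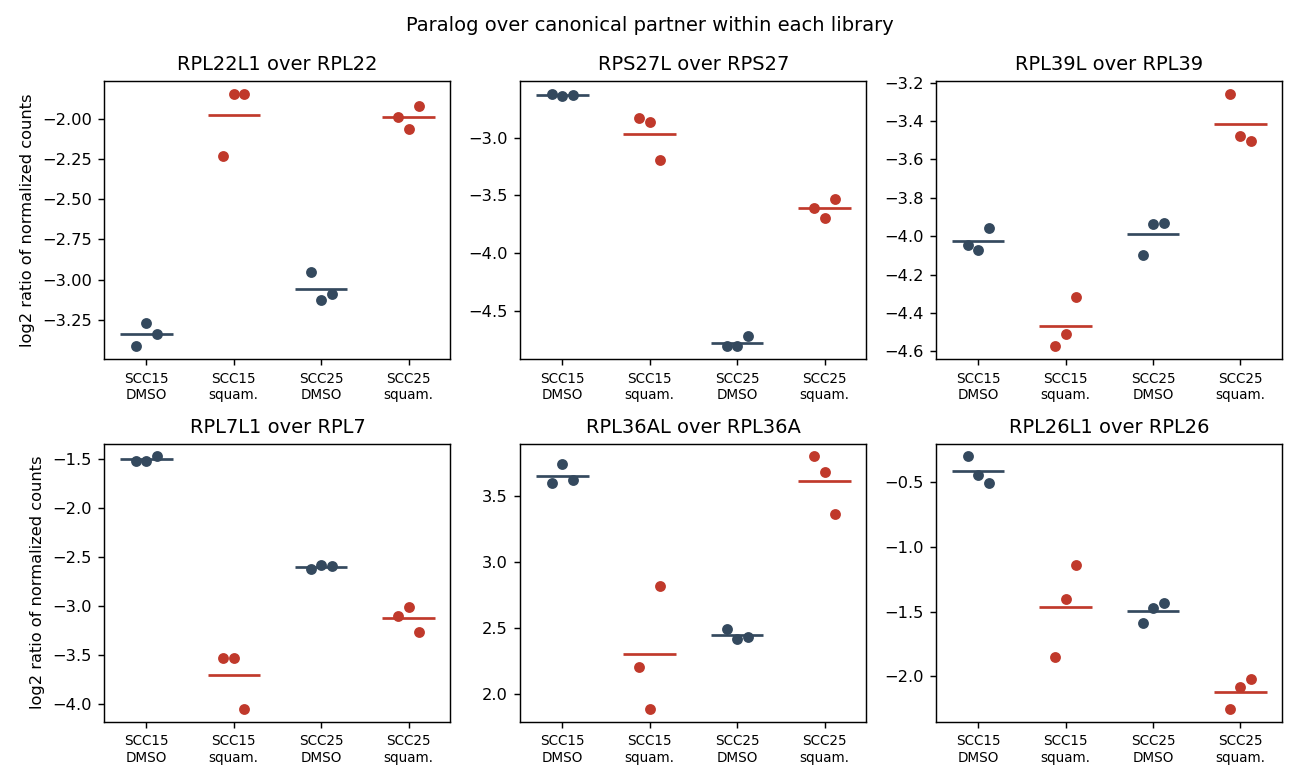
Log2 ratio of normalized counts of a paralog over its canonical partner (y axes, scaled per panel) in each library (points) of the 4 groups (x axes), with the group mean as a line. RPL22L1 over RPL22 is higher and RPL7L1 over RPL7 and RPL26L1 over RPL26 are lower with squamocin in both lines, while RPS27L, RPL39L and RPL36AL shift in opposite directions.

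Some members are hard to count. RPL17 (96.9%), RPS10 (84.0%), RPL26 (65.3%) and RPL36A (43.8%) share these shares of the exonic bases of their reference transcript with another annotated gene on the same strand, in RPL17, RPS10 and RPL36A a read-through gene. Without the 5 canonical genes that share over 20% of these bases, 72 of 72 canonical genes rose in SCC15, and 62 rose and 4 fell of 72 in SCC25. The tables also list ribosomal protein pseudogenes, 398 rows in SCC15 and 432 in SCC25, and their reads came to 5.35% ± 0.114 of those of the members with DMSO and 5.30% ± 0.0824 with squamocin in SCC15 (SD, n = 3), and to 5.15% ± 0.136 and 4.88% ± 0.0584 in SCC25.

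Other genes of the ribosome and its control were examined by the same test, by which 30.9% of all genes rose and 30% fell in SCC15, and 38.3% rose and 38.5% fell in SCC25. FAU and RACK1 rose in SCC15 by 1.46 and 1.43, and in SCC25 FAU rose by 0.60 while RACK1 fell by 0.24 on the log2 scale. Of other mRNAs known to carry a TOP motif, 18 of 18 tested rose in SCC15 (median 1.13, and 0.93 without replicate 3), and 13 of 19 rose and 4 fell in SCC25 (median 0.25). TPT1, EEF1A1 and NACA had log2 fold changes of 1.61, 1.59 and 1.58 in SCC15, and in SCC25 of 0.72, 0.11 and 0.85. EEF2, the elongation factor of translocation, rose by 1.46 in SCC15 and fell by 0.90 on the log2 scale in SCC25. VIM rose by 2.05 in SCC25 from a mean of 4.73 normalized counts and was not tested in SCC15.

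The lists that follow are read against the same shares of all genes, 30.9% higher and 30% lower in SCC15 and 38.3% and 38.5% in SCC25. Of the dedicated chaperones of ribosomal proteins, 1 of 9 rose and 2 fell in SCC15, and 2 of 9 rose and 4 fell in SCC25 (medians 0.16 and -0.07). HEATR3, which serves RPL5 and RPL11, fell in both lines (-1.55 and -1.39), as did GRWD1, a partner of RPL3 (-0.59 and -1.34). TSR2, the escort of RPS26, rose (0.75 and 0.50). Of the mTORC1 and LARP1 genes, 8 of 18 rose and 5 fell in SCC15, and 9 of 17 rose and 5 fell in SCC25 (medians 0.18 and 0.30). DDIT4, an inhibitor of mTORC1, rose by 2.95 and 0.93, RHEB, its activator, by 1.25 and 2.11, and EIF4EBP1, a repressor that mTORC1 inactivates, by 2.06 and 0.69. EIF4EBP2 went the other way, with a log2 fold change of -1.84 in SCC15 and of -0.16 in SCC25, where it was not called. LARP1, named after its values were seen, changed by -0.53 in SCC15, or -0.34 without SCC15 squamocin replicate 3, and by -0.67 in SCC25.

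Of the ribosome quality control genes, 7 of 19 rose and 3 fell in SCC15, where 30.9% and 30% of all genes did, and 9 rose and 6 fell in SCC25 (medians 0.20 and 0.12), where 38.3% and 38.5% did. ZNF598, the ligase that ubiquitinates RPS10 on collided ribosomes, rose by 1.52 in SCC15 and fell by 0.30 on the log2 scale in SCC25. Of the genes of the p53 response to disturbed ribosomes, 7 of 12 rose and 2 fell in SCC15, and 11 rose and 1 fell in SCC25 (medians 0.42 and 0.91). GDF15 rose by 4.27 and 2.09, BBC3, which promotes apoptosis, by 3.42 and 2.75, and CDKN1A, an inhibitor of the cell cycle, by 1.25 and 2.81. Of the mitochondrial ribosomal protein genes, 40 of 78 rose and 5 fell in SCC15 (median 0.43), and 39 rose and 15 fell in SCC25 (median 0.14). Without SCC15 squamocin replicate 3, the chaperones gave 2 rises and 2 falls, the mTORC1 and LARP1 genes 10 and 6, the quality control genes 10 and 4 and the p53 genes 7 and 2, where 38.4% of all genes rose and 37.2% fell. The median of the chaperones then turned to -0.03 and that of the mTORC1 and LARP1 genes was 0.35.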

How the data were processed

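RNA of 12 libraries was sequenced. Per the labels, reads were aligned with HISAT2 2.0.5 to GRCh38 and counted per gene with featureCounts 1.5.0-p3. The deposited signal is the read count over a size factor that the authors set for each library within its cell line, and the SCC25 columns headed FPKM hold the same quantity. Values times that factor were whole (within 0.05) for 100% of genes. The log2 fold changes and p-values that the authors deposited were not used. Strandedness, annotation release and the handling of multi-mapping reads are not given in the sources used here.

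Genes whose mean reached 10 normalized counts were tested on log2(normalized count + 1) with limma 3.58.1 (R 4.3.3, empirical Bayes with trend). Tests were two-sided, p-values were adjusted by Benjamini-Hochberg over all genes of a line, and lines were compared by a contrast. Fold changes on that scale understate the change of low genes. Ratios of paralog pairs were tested by exact permutation (scipy 1.17.1). Alternatives were equal totals, TMM, pseudocounts of 0.1 and 10, other filters, count tests of the recovered reads by edgeR 4.0.16 or DESeq2 1.42.0, a replicate block, and each library left out. Correction for exonic length (GENCODE release 44) and centring on the median canonical gene were added once the data had been seen. Members, lists and pairs were chosen with earlier results of these data known. Genes named were the paralogs and their partners, the 5 highest and lowest canonical genes of a line, those with opposite calls, 5S RNP, stalk and other well-known members, and at most 5 per list, but 2 genes are not reported here. In data simulated with 200 genes changed 2-fold, limma recovered 89.5% of them in SCC15 (15902 genes) and 88.5% in SCC25 (16539 genes), and 4.28% and 7.33% of its calls were false. The simulation gave all genes the same dispersion, held no library that stood apart and changed far fewer genes than were called here. Its rates therefore need not hold for these data.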

Additional observations from a re-analysis of the deposited data

Results flagged for a closer look

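The limma contrast called a different response to squamocin in the 2 cell lines for 18 of the canonical genes named in the text, each with the higher response in SCC15. On the log2 scale the response in SCC15 minus that in SCC25 was 2.26 ± 0.16 (SE) for RPL36A, 2.03 ± 0.18 for RPL3, 1.73 ± 0.19 for RPL10 and 1.67 ± 0.24 for RPS14. It was 1.49 ± 0.22 for RPL7, 1.46 ± 0.24 for RPL23A, 1.32 ± 0.21 for RPL10A, 1.31 ± 0.18 for RPL5, 1.22 ± 0.23 for RPL11 and 1.15 ± 0.23 for RPS27. RPL12 followed with 1.13 ± 0.18, RPLP0 with 1.02 ± 0.23, RPLP2 with 0.96 ± 0.28, RPS6 with 0.91 ± 0.23 and RPL39 with 0.88 ± 0.24. The smallest differences were 0.76 ± 0.14 for RPL17, 0.76 ± 0.25 for RPLP1 and 0.54 ± 0.20 for RPL15. Without SCC15 squamocin replicate 3 the differences of RPLP2, RPLP1 and RPL15 were 0.63 (adjusted p = 2.32e-08), 0.46 (adjusted p = 7.94e-07) and 0.33 (adjusted p = 9.86e-05). For comparison, 26.1% of all genes tested in both lines had a response called higher in SCC15.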

How the results depend on the processing

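Counts of canonical genes called in SCC15 stayed at 76 to 77 higher under all alternatives, and those in SCC25 at 55 to 66 higher. With equal totals, the canonical median was 1.02 in SCC15 and 0.31 in SCC25, 12 canonical genes were called lower in SCC25, the paralog median in SCC25 was 0.34, 4 members responded less in SCC15, and RPL10, RPL10A and RPL7 turned to -0.15, -0.024 and -0.19 in SCC25. The medians of all genes moved as well, as given with the main values. TMM factors, edgeR and the correction for exonic length each gave 1 member responding less in SCC15, edgeR gave a canonical median of 0.50 in SCC25, and the length correction gave a paralog median of 0.33 and turned RPL36AL to -0.033 in SCC25. Requiring 10 normalized counts in each library removed RPL3L and gave a paralog median of 0.79 in SCC25. With protein-coding genes outside the mitochondrial genome as the denominator, the share of reads on canonical genes in SCC25 rose by 0.26 on the log2 scale. The causes of these shifts were not tested, except that the filter of 10 tests fewer genes.

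Leaving out 1 library at a time, the canonical median ranged from 1.25 to 1.66 in SCC15 and from 0.51 to 0.52 in SCC25, paralogs called lower in SCC15 from 1 to 3, and members responding less in SCC15 from 0 to 7. RPL26L1 ranged from -0.19 to 0.27 and RPL36AL from -0.27 to 0.22 in SCC15. The highest count or lowest value of these, the canonical median of SCC25 aside, came without SCC15 squamocin replicate 3. Canonical genes called above the change of the family's median level ranged from 0 to 10 and below it from 2 to 17 in SCC15.

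Libraries of the same number did not deviate together (correlations of -0.05 to 0.01), so the numbers were not taken as pairs. With the replicate number as a block, 77 canonical genes rose in SCC15, 65 rose and 5 fell in SCC25, and the ratio differences of RPL22L1 to RPL22 (1.22), RPL7L1 to RPL7 (-1.36) and RPL26L1 to RPL26 (-0.83) had an adjusted exact permutation p of 0.0729, which rests on the smallest p that sign changes within the 6 pairs allow. A correction for gene length given in the tables was not run, since the columns used hold none. Read counts limit RPL3L, RPS10 and RPL36A most in SCC15, and members with near-identical copies or shared exons depend on how such reads were counted.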
